A study of Mus musculus with 3 samples.

Results

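The MHC class I genes and their peptide-loading machinery were followed in CD4+ T cells taken from tumours and from lymphoid organs. The 10 genes were chosen by name: the class I heavy-chain genes H2-T22, H2-T10, H2-T23, H2-K1 and H2-D1, the light-chain gene B2m, the peptide transporter genes Tap1 and Tap2, the tapasin gene Tapbp, and the transactivator gene Nlrc5. All 10 were found among 23337 gene symbols, each in a single row, and all 10 passed the filter of a mean of at least 1 FPKM that left 9800 tested genes. The choice of genes was made with their tumour and lymphoid values known, so those values are described here with no test.

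The tumour group was 1 library of Th1-labelled CD4+ T cells from B16-F10 tumours, a transplantable mouse melanoma. The lymphoid group was 2 libraries of cells with the same label. Their titles say spleen, while their tissue label adds lymph nodes, including draining ones. The mice of both groups were C57/Bl6j, wild type and 7 weeks old, with no further allele or agent named. The labels state neither how the Th1 identity was set, nor whether animals were pooled or were separate for each library, nor whether the lymphoid cells came from tumour-bearing mice. P-values below rest on the spread between the 2 lymphoid libraries, pooled in part across genes. The lone tumour library adds nothing to that spread, which may be technical.

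Class I molecules display peptides from inside the cell to T cells and natural killer cells. Proteasomes cut the peptides, the Tap1-Tap2 transporter carries them into the endoplasmic reticulum, and tapasin holds the transporter next to a newly made heavy chain bound to beta-2-microglobulin. Nlrc5 is drawn to the promoters of these genes and raises their transcription, and interferons raise Nlrc5 and much of the pathway. T cells carry class I at a high level at all times.

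The libraries differed in depth and background. The deposited values, taken as FPKM (fragments counted relative to transcript length and library size), implied about 3250000 fragments in the tumour library, against 11440000 and 15430000 in lymphoid libraries 1 and 2. Levels below are FPKM divided by median-of-ratios size factors of 0.579 for tumour and 1.29 and 1.33 for lymphoid libraries 1 and 2, and changes are differences in log2(scaled FPKM + 1). This scale sets the median tested gene near 0 (median log2 change -0.01, against -0.96 as deposited). Over 1440 odorant and vomeronasal receptor genes, which T cells are not known to use, the mean level was 0.662 scaled FPKM in tumour, against 0.0583 and 0.101 in the lymphoid libraries. The CD4 T cell markers had a summed level of 708.7 in tumour, against 738.4 and 731.5, and Tbx21, which encodes the Th1 regulator T-bet, was at 12.9, against 18.0 and 20.2. Ifng, which encodes interferon gamma, an inducer of class I genes, was at 4.53, against 12.9 and 12.0.

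Markers of other cell types that carry class I were low beside the CD4 T cell markers, but several were higher in tumour. The 10 macrophage and dendritic cell markers found had a summed level of 9.28 scaled FPKM in tumour, against 2.05 and 1.67 in the lymphoid libraries. Itgam was at 3.95, against 1.01 and 0.674, and C1qa at 2.55, against 0 and 0.0946. C1qb was at 0 throughout. In tumour 3 of the 10 were at 0, and the other 7 were each higher than in both lymphoid libraries on this scale. Tumour values rested on about 1 estimated fragment each for Lyz2, Cd68 and Csf1r, 3 for Flt3, 5 for C1qa, 10 for Xcr1 and 35 for Itgam. As deposited Cd68, Csf1r and Xcr1 were lower in tumour, by log2 changes of -0.04, -0.02 and -0.04, while Lyz2, Flt3, C1qa and Itgam stayed higher. The 7 melanocyte markers summed to 3.35, against 1.35 and 1.49. Among them Pmel was at 1.49, against 0.798 and 0.835, and Sox10 at 0.770, against 0.0248 and 0.0874. These tumour values rested on about 6 and 4 estimated fragments, and as deposited Pmel was lower in tumour (log2 change -0.16) and Sox10 higher (0.43). Tyr was lower in tumour, Mitf lay between the lymphoid values and Mlana was at 0 throughout. The 5 B cell markers summed to 0.646, against 0.757 and 0.530, with 4 of 5 at 0 in tumour. The 6 CD8 T and natural killer cell markers summed to 34.0, against 35.96 and 32.97, but differed among themselves. Cd8b1 was at 4.77, against 0.494 and 0.783, Klrb1c at 13.4, against 23.6 and 20.1, and Klrk1 at 12.8, against 11.8 and 11.9, while Cd8a, Ncr1 and Klra8 were at 1.47 or less in every library. The fibroblast and endothelial markers summed to 9.41, against 9.81 and 8.98, most of it from Pecam1 at 7.70, against 9.76 and 8.80. That sum therefore says little of the other markers in this list. Cdh5 was at 0.777 in tumour, against 0 and 0.0235, and Kdr at 0.565, against 0 and 0.0425. Col1a2 and Col3a1 were at 0 in tumour. Many of these marker values lay near the mean of 0.662 scaled FPKM that the odorant and vomeronasal receptor genes had in tumour. The part of that background in the marker values was not tested. In a bulk sample a change in the share of such cells and a change in RNA per cell cannot be told apart, and the part these cells play in the values below was not tested.

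H2-T22 and H2-T10 are close copies, which matters for reading their values. H2-T22 (ENSMUSG00000056116.18) lies on chromosome 17 from 36037128 to 36042747 on the minus strand of GRCm38. H2-T10 (ENSMUSG00000079491.9), annotated as a polymorphic pseudogene, lies at 36115876 to 36121465 on the same strand. Their coding sequences are 1137 bases each and differ at 42 of them, an identity of 96.3%, whereas H2-T22 shares 73.2% with H2-T23, 71.7% with H2-K1 and 73.2% with H2-D1. The 75 coding bases, the length of 1 read, in which the copies differ most hold 14 of the 42 differences. They run from coding base 873 to 947 in both and are shown with the differing bases in capitals, from GENCODE release M21 transcripts.
H2-T22: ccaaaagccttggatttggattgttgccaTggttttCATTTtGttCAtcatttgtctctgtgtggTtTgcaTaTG
H2-T10: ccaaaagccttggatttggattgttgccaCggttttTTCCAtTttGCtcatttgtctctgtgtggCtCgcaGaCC

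Of the 1687 windows of 75 bases in the longest protein-coding H2-T22 transcript, 440 (26.1%) also occur in a transcript of another annotated gene. H2-T10 holds 339 of them and the neighbouring class I gene Gm11127 holds 75. The shared portion was 23.3% for H2-T10, 13.1% for H2-T23, 6.90% for H2-D1 and 1.55% for H2-K1. It was 0 of 786 windows for B2m, 0 of 2879 for Tap1, 0 of 3368 for Tap2 and 0 of 7504 for Nlrc5, and 28 of 2824 for Tapbp. B2m, Tap1, Tap2 and Nlrc5 thus had no read-length stretch in common with another annotated gene, while the heavy-chain genes did. The sources used here do not say how the authors divided shared reads.

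The promoters of the genes are also of interest, because class I genes are known to be controlled through a shared set of elements. RefSeq windows (GRCm38.p6) were present for 7 of the 10 genes, namely all but H2-T10, Tap2 and Nlrc5. The 250 bases before the start are shown for H2-T22, which stood apart in the values, and for H2-K1 and B2m, whose changes were small. Capitals mark matches on either strand to the IRF core AANNGAAA, the CRE half-site TGACG, the CCAAT box CCAAT and the NF-kB consensus, patterns set with these sequences in view. H2-T22 is at chr17:36042743-36042992 on the minus strand, H2-K1, of whose 2 windows the first is shown, at chr17:34000348-34000597 on the minus strand and B2m at chr2:122147437-122147686 on the plus strand.
H2-T22: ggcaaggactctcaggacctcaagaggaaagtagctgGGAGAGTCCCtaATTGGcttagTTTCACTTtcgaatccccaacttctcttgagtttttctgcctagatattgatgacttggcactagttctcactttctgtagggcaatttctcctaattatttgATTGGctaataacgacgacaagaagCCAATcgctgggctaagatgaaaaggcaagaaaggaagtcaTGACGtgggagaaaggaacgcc
H2-K1: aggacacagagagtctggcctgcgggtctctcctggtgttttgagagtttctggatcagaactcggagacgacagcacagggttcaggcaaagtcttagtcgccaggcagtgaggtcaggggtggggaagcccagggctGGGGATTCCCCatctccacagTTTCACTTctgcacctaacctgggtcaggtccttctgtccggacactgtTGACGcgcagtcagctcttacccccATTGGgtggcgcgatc
B2m: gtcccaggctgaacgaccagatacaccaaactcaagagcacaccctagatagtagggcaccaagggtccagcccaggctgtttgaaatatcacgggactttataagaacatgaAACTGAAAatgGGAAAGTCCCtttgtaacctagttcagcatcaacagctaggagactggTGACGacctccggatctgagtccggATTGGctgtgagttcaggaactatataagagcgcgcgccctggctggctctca

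All 3 windows hold each of the 4 elements, with no overlap between different elements, and so does that of H2-D1. Of the 7 windows, 7 hold a CCAAT box, 5 a CRE half-site, 5 an IRF core and 4 an NF-kB match. Over all 32851 RefSeq windows of this length, 33.8%, 17.8%, 21.3% and 7.25% hold these elements in the same order. The patterns were set with the printed sequences in view, so nothing is read from that difference. H2-T22 thus has the same kinds of letters in its window as H2-K1 and B2m. A match is a description of letters and not of binding.

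H2-T22 was the member that differed between the groups. It encodes a non-classical class I heavy chain that gamma-delta T cells are known to recognise and that folds without peptide. It was at 3.33 scaled FPKM in tumour cells, against 19.5 and 20.2 in lymphoid libraries 1 and 2. As deposited these values were 1.93 FPKM in tumour, against 25.2 and 26.9. The tumour value lay far under both lymphoid values, which were close to each other, and the lymphoid mean of 19.8 ± 0.507 (SD, n = 2) was 5.95 times the tumour value.

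The log2 change of H2-T22 was -2.24 with lymphoid library 1 as the comparison and -2.29 with lymphoid library 2, and the lymphoid libraries differed by 0.05. Of the 9800 tested genes 0.459% had a lower mean change than its -2.27. The gene was chosen with these values known, so that place is a description and not a test. The tumour value rested on about 11 estimated fragments, where the lymphoid mean would have given about 66. The direction held with each scaling of the libraries tried, with log2 changes from -3.21 as deposited to -1.61 with library totals.

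H2-T10, the close copy of H2-T22, did not show that difference. It was at 8.40 scaled FPKM in tumour, against 6.93 and 6.13 in the lymphoid libraries. The tumour value was the highest of the 3, by a log2 change of 0.32, and rested on about 23 estimated fragments. As deposited it was the lowest of the 3, at 4.86 FPKM against 8.97 and 8.18, so its direction follows the scaling.

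The ratio of H2-T22 to H2-T10 within a library needs no scaling. It was 0.397 in the tumour library, against 2.81 and 3.29 in lymphoid libraries 1 and 2, so that the order of the copies was opposite in the 2 groups. Summed, as is prudent for copies that can share reads, the pair was at 11.7 scaled FPKM in tumour, against 26.4 and 26.3, a log2 change of -1.10. The sum was lower in tumour under each scaling, from -2.19 as deposited to -0.37 with library totals.

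H2-T9, a row whose symbol was not matched to GENCODE M21 or RefSeq GRCm38.p6, differed in the opposite direction. It was at 29.2 scaled FPKM in tumour, against 16.1 and 15.7 in the lymphoid libraries. Among the 3 rows H2-T22, H2-T10 and H2-T9, the portion assigned to H2-T22 was 8.15% in tumour, against 45.8% and 48.0%. That assigned to H2-T9 was 71.3% in tumour, against 37.9% and 37.4%.

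The 3 rows together, a sum chosen after the values were seen, were at 40.9 scaled FPKM in tumour, against 42.5 and 42.0. The summed tumour level was the lowest of the 3 by a small margin, a log2 change of -0.05. Gm11127, an annotated class I gene between H2-T22 and H2-T10, shares sequence with H2-T22 and was picked for that reason after values were seen. It was at 46.0 in tumour, against 8.86 and 10.08, a log2 change of 2.17. With it included the sum of 4 rows was 86.9 in tumour, against 51.4 and 52.1. Whether reads were divided differently between these rows in the tumour library was not tested, since the values are one number per gene.

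**Figure D1:**
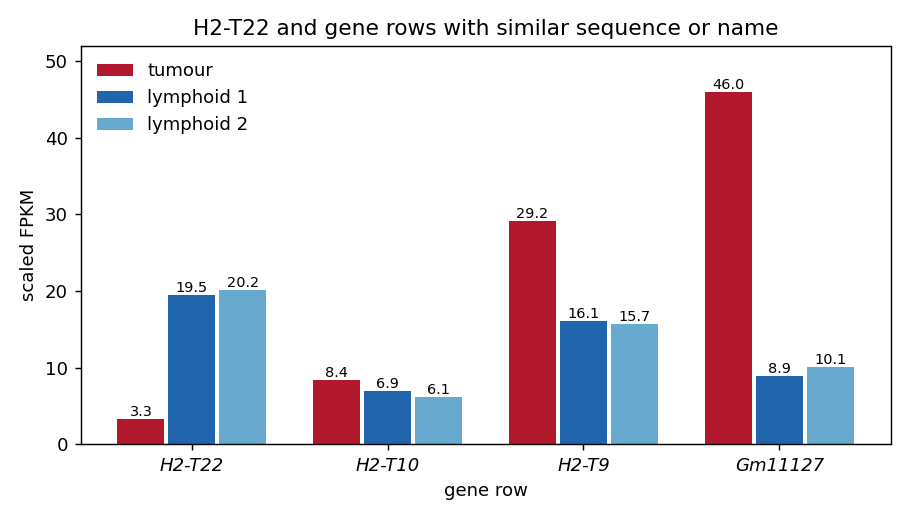
Scaled FPKM (vertical axis, from 0) of H2-T22, its copy H2-T10, the row H2-T9 and the neighbouring gene Gm11127, with a bar for each library: tumour (red), lymphoid 1 (dark blue) and lymphoid 2 (light blue). H2-T22 was at 3.33 in tumour, against 19.5 and 20.2, while H2-T9 and Gm11127 were higher in tumour than in both lymphoid libraries.

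H2-T23 encodes Qa-1, which presents leader peptides of other class I chains to the CD94-NKG2A receptor of natural killer and T cells. It lies close to H2-T22, at 36029773 to 36032855 on chromosome 17. It was at 52.4 scaled FPKM in tumour, against 40.2 and 45.7 in the lymphoid libraries. The tumour value was the highest, by a log2 change of 0.29, with a lymphoid difference of 0.18. The ratio of H2-T22 to H2-T23 was 0.0635 in tumour, against 0.485 and 0.442, so the values of these neighbouring rows did not change alike. The H2-T22 value in tumour rested on about 11 estimated fragments, and the division of shared reads between rows was not tested.

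The levels of the classical heavy-chain genes H2-K1 and H2-D1, which present most peptides to CD8 T cells, did not separate the groups on this scale. H2-K1 (chromosome 17, 33996017 to 34000347) was at 574.7 scaled FPKM in tumour, against 481.7 and 578.5. H2-D1 (chromosome 17, 35262730 to 35267499) was at 227.8, against 226.9 and 264.9. For both genes the tumour value lay between the lymphoid values. The ratio of H2-K1 to H2-D1, which needs no scaling, was 2.52 in tumour, above both lymphoid values of 2.12 and 2.18.

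B2m encodes beta-2-microglobulin, the light chain shared by class I heavy chains. It lies on chromosome 2 from 122147686 to 122153083 and was at 577.2 scaled FPKM in tumour, against 767.3 and 615.4. The tumour value was the lowest, yet the log2 change of -0.25 was smaller than the difference of -0.32 between the lymphoid libraries. The ratio of B2m to the sum of H2-K1 and H2-D1 was 0.719 in tumour, against 1.08 and 0.730, so that the tumour library matched lymphoid library 2 more closely than the lymphoid libraries matched each other.

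The transporter genes lie on chromosome 17, Tap1 from 34187553 to 34197225 and Tap2 from 34203527 to 34216321, with the immunoproteasome gene Psmb8 between them. Tap1 was at 29.8 scaled FPKM in tumour, against 28.3 and 28.0, a log2 change of 0.08. Tap2 was at 19.9, against 20.0 and 24.8, a log2 change of -0.15. The Tap1 values of all 3 libraries were close, and for Tap2 the tumour value was near that of lymphoid library 1. The ratio of Tap1 to Tap2 was 1.50 in tumour, against 1.42 and 1.13.

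Tapbp, which encodes tapasin (chromosome 17, 33915899 to 33929292), was at 37.1 scaled FPKM in tumour, against 45.8 and 40.2. This was the lowest of the 3, by a log2 change of -0.21 with a lymphoid difference of -0.18. Nlrc5 (chromosome 8, 94434356 to 94527272), the transactivator, was at 23.6, against 23.5 and 20.6. The tumour value of Nlrc5 was the highest by a margin of 0.01 on the log2 scale over lymphoid library 1. On this scale the regulator and the classical genes therefore showed no separation of tumour from lymphoid RNA beyond the spread of the 2 lymphoid libraries. That holds for this scaling only. As deposited H2-K1, H2-D1 and Nlrc5 had log2 changes of -1.056, -1.281 and -1.025, with the median tested gene at -0.96. With library totals their changes were 0.90, 0.67 and 0.85, with the median tested gene at 0.65.

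**Figure D2:**
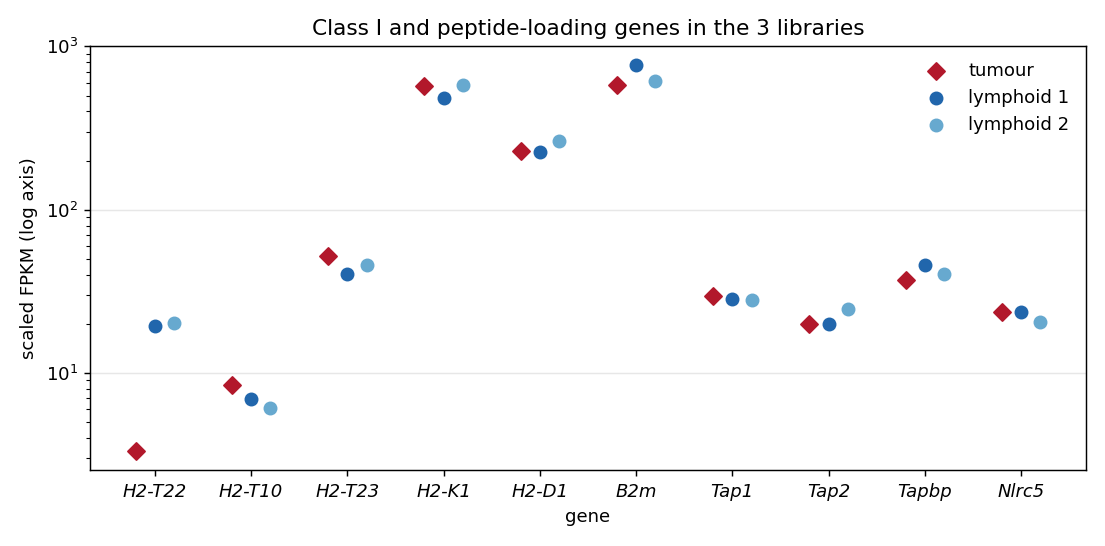
Scaled FPKM (vertical log axis) of the 10 genes (horizontal axis) in the tumour library (red diamonds) and lymphoid libraries 1 and 2 (blue circles). H2-T22 is the gene whose tumour point, at 3.33, sits apart from its lymphoid points, while B2m and H2-K1 sit at 481.7 or above in all 3 libraries.

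In order of level per length in the tumour library, B2m and H2-K1 came first, at 577.2 and 574.7 scaled FPKM, followed by H2-D1, H2-T23, Tapbp, Tap1, Nlrc5, Tap2, H2-T10 and H2-T22. In the lymphoid libraries H2-T22, at 19.5 and 20.2, stood near Tap2 and Nlrc5 and above H2-T10. Lymphoid means of Tap2 and Nlrc5, 22.4 ± 3.39 and 22.03 ± 2.07 (SD, n = 2), did not differ beyond their spread. Those of B2m and H2-K1 were 691.3 ± 107.4 and 530.1 ± 68.4 (SD, n = 2), with B2m the higher in both lymphoid libraries.

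Over the 10 genes the tumour value was higher than both lymphoid values for 4 genes, lower than both for 4 and between them for 2. The rule for choosing the genes used this contrast, so nothing is read from the counts. Over all tested genes 41.3% were higher than both and 42.6% lower than both. Leaving H2-T22 aside, the changes of the other 9 ran from -0.25 to 0.32, inside the range from -0.89 to 1.31 that held the middle 90% of tested genes. The median change of the 10 was -0.01, near that of the median tested gene. The differences between the 2 lymphoid libraries ran from -0.32 to 0.30 over the same genes, and their SD over all tested genes was 0.36.

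**Figure D3:**
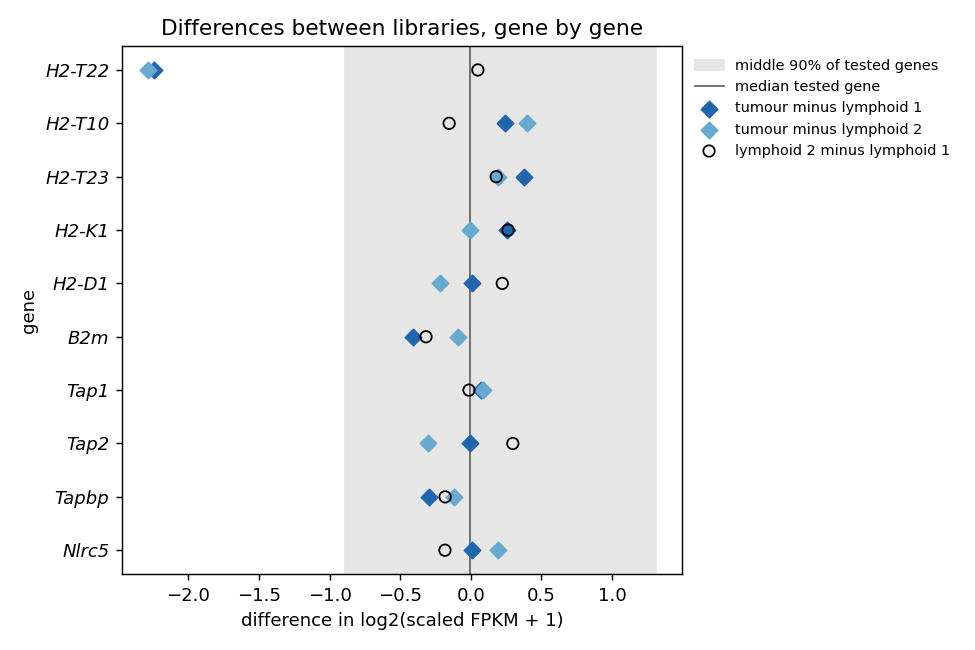
Difference in log2(scaled FPKM + 1) (horizontal axis) for each of the 10 genes, tumour minus lymphoid 1 and tumour minus lymphoid 2 (diamonds) and lymphoid 2 minus lymphoid 1 (open circles), over a grey band that holds the middle 90% of tested genes. H2-T22 lies at -2.24 and -2.29, outside the band, and the other 9 genes lie inside it, mixed with the lymphoid differences. The genes were chosen with this contrast known, so their place against the band is no test.

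The sign of these small changes depended on how the libraries were scaled. As deposited all 10 genes were lower in tumour, with changes from -1.43 to -0.71 for the 9 other than H2-T22, around the -0.96 of the median tested gene. With library totals 9 of the 10 were higher, from 0.53 to 1.05, around a median tested gene at 0.65. With size factors taken from every symbol above 0 in all libraries, 1 was higher and 9 were lower, around a median tested gene at -0.25. A scaling moves all genes of a library nearly alike, so the gap between H2-T22 and the other 9 could change little with it. The pseudocount can move that gap. The change of H2-T22 minus the median of the other 9 was -2.34 with a pseudocount of 1, -2.62 with 0.1 and -1.64 with 5.

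**Figure D4:**
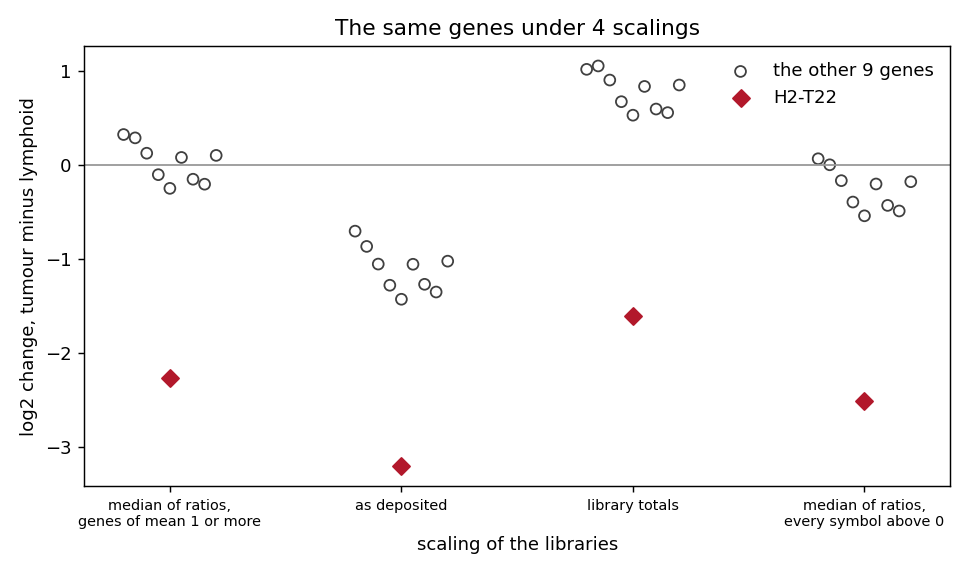
Log2 change of the 10 genes (vertical axis, tumour minus the lymphoid mean) under 4 scalings of the libraries (horizontal axis), with H2-T22 as a red diamond and the other 9 genes as open circles. The 9 genes move as a block, between -1.43 and 1.05 over the scalings, and H2-T22 lies below them in each.

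Other genes of the pathway were tested with limma across all 9800 genes. A call meant a Benjamini-Hochberg adjusted p below 0.05, and 21.9% of tested genes were called, 12.7% higher and 9.17% lower in tumour. With 1 residual degree of freedom, the spread of the lone tumour library is taken to equal that of the lymphoid libraries. The share of calls that were higher was 58.1% with this scaling, 5.75% as deposited, 94.0% with library totals and 30.3% with size factors from every symbol. When the estimated counting error of the tumour library was added, 4.02% of the 9206 genes with a known length were called.

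Among other class I and class I-like genes, 3 of 15 tested were called higher and 0 lower, where 12.7% of all tested genes were called higher and 9.17% lower. Their median log2 change was 0.44, against -0.01 for all tested genes. At an unadjusted limma p under 0.05 were 7 of the 15, against 3626 of all 9800 tested genes. H2-Q4, a Qa-region heavy chain gene named after its value was seen, was at 188.1 scaled FPKM in tumour, against 100.3 and 109.9, and rose by 0.83 (SE 0.20, limma adjusted p = 0.0392). H2-Bl, annotated as a polymorphic pseudogene, rose by 1.24 (limma adjusted p = 0.0105) at a low level, 4.52 against 1.61 and 1.09. H2-T9 rose by 0.84 (limma adjusted p = 0.0226). As deposited, H2-Q4 and H2-T9 were instead lower in tumour, by log2 changes of -0.34 and -0.29. With size factors from every symbol neither was called (limma adjusted p = 0.0918 and 0.0590). With counting error added the limma adjusted p was 0.130 for H2-Q4 and 0.283 for H2-Bl, and H2-T9, for which no length was found, was not included.

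H2-L, a class I gene that the H2-b haplotype of C57BL/6 mice is known to lack, was nevertheless listed at 164.6 scaled FPKM in tumour, against 89.5 and 163.3. It was picked after its values were seen, and it was not called (limma adjusted p = 0.439). The H2-M genes H2-M2, H2-M5 and H2-M10.2, also picked later, were under the filter on low values, at 3.73, 2.34 and 2.85 in tumour, against at most 0.280, 0.198 and 0.0571 in the lymphoid libraries. They rested on about 11, 5 and 6 estimated fragments, and the odorant and vomeronasal receptor genes were also higher in tumour, with 11.2% of them above 1 scaled FPKM, against 0.486% and 0.417%. The part of that background in these values was not tested.

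Immunoproteasome subunits replace the constitutive catalytic ones under interferon and favour class I peptides. Their list, with PA28, had 0 of 5 calls by limma and 0 with counting error added. At an unadjusted limma p under 0.05 were 0 of the 5, against 3626 of all 9800 tested genes. Psmb8 was at 67.5 scaled FPKM in tumour, against 87.6 and 107.6, with a log2 change of -0.52 (limma adjusted p = 0.151). Psmb9 was at 17.01, against 21.5 and 19.5, and Psmb10 at 14.6, against 17.1 and 18.9. The PA28 activator gene Psme1 was at 106.3, against 93.1 and 135.5, and Psme2 at 84.2, against 68.2 and 71.9.

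Of the 3 constitutive catalytic subunits Psmb5 fell, to 5.84 scaled FPKM in tumour against 10.25 and 11.04 in the lymphoid libraries (log2 change -0.77, SE 0.16, limma adjusted p = 0.0246). It rested on about 10 fragments, and the call ended with counting error added (limma adjusted p = 0.441) and with library totals (log2 change -0.08, limma adjusted p = 0.844). With library totals the single call of this list was Psmb6, higher in tumour (log2 change 1.10, limma adjusted p = 0.00418). Psmb6 was at 18.2, against 13.4 and 14.4, and Psmb7 at 8.65, against 13.3 and 12.1, with limma adjusted p of 0.173 and 0.0866. The ratio of Psmb8 to Psmb5, the immunoproteasome subunit over the one it replaces, was 11.5 in tumour, against 8.55 and 9.75. For Psmb9 over Psmb6 it was 0.934, against 1.60 and 1.36, and for Psmb10 over Psmb7 it was 1.69, against 1.29 and 1.56. The ratio was thus higher in tumour than in both lymphoid libraries for 2 of the 3 pairs and lower for Psmb9 over Psmb6.

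The chaperones and peptidases that fold heavy chains and trim peptides had 0 calls among 16 tested genes by limma. With counting error added 0 were called. At an unadjusted limma p under 0.05 was 1 of the 16, against 3626 of all 9800 tested genes. Their median log2 change was -0.04. Calr, the most abundant, encodes calreticulin and was at 98.7 scaled FPKM in tumour, against 89.0 and 131.1. Its tumour value lay between the lymphoid ones.

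The transcription factors and chromatin regulators of class I genes also had 0 calls, among 23 tested, and 0 with counting error added. At an unadjusted limma p under 0.05 were 4 of the 23, against 3626 of all 9800 tested genes. The median log2 change was -0.03, and the changes of single genes ran from -0.57 to 0.61. With a pseudocount of 5 there were 2 calls in this list, and with size factors from every symbol 4.

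Interferon receptors and their kinases had 2 higher and 0 lower calls among 6 tested genes, where 12.7% of all tested genes were called higher and 9.17% lower. At an unadjusted limma p under 0.05 were 3 of the 6, against 3626 of all 9800 tested genes. Nothing is read from these counts. Ifngr1, the ligand-binding chain of the interferon gamma receptor, was at 141.6 scaled FPKM in tumour, against 36.4 and 32.6, and rose by 2.01 (SE 0.19, limma adjusted p = 0.00228). Ifnar1, a chain of the type I interferon receptor, was at 13.2, against 8.25 and 8.02, and rose by 0.63 (limma adjusted p = 0.0411). The Ifngr1 call stayed with counting error added (adjusted p = 0.00999) and that of Ifnar1 did not (adjusted p = 0.220), and as deposited Ifnar1 was lower in tumour by a log2 change of -0.44. With size factors from every symbol the Ifnar1 call was lost (limma adjusted p = 0.132). Ifnar2 was at 11.3, against 16.8 and 15.4 (limma adjusted p = 0.0999), and Ifngr2, under the filter on low values, was at 1.60, against 0.855 and 0.675. Both were named after their values were seen.

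Class II genes, which mark antigen-presenting cells and which mouse T cells make little of, had 1 higher and 1 lower call among 5 tested. Both called genes passed the filter on low values only through the group where they were high, so their values are given with no test and nothing is read from the calls. H2-DMb2, a chain of the class II peptide editor, was at 5.10 scaled FPKM in tumour, against 0.286 and 0.137. H2-Ob, a chain of the inhibitor of that editor, was at 0.587, against 2.24 and 1.48. The class II chain genes H2-Aa and H2-Ab1, named after their values were seen, were at 0.517 and 0.918 in tumour, against at most 0.0479 and 0.127, and H2-Eb1 was at 0 in tumour. H2-Aa and H2-Ab1 rested on about 1 and 2 estimated fragments there. The odorant and vomeronasal receptor genes had a mean of 0.662 in the same library. The summed level of the list was 15.1 in tumour, against 7.86 and 6.85. Beside this, the myeloid marker Itgam was at 3.95 in tumour, against 1.01 and 0.674. The part of such cells, or of the background seen in the receptor genes, in the class II values was not tested.

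**Figure D5:**
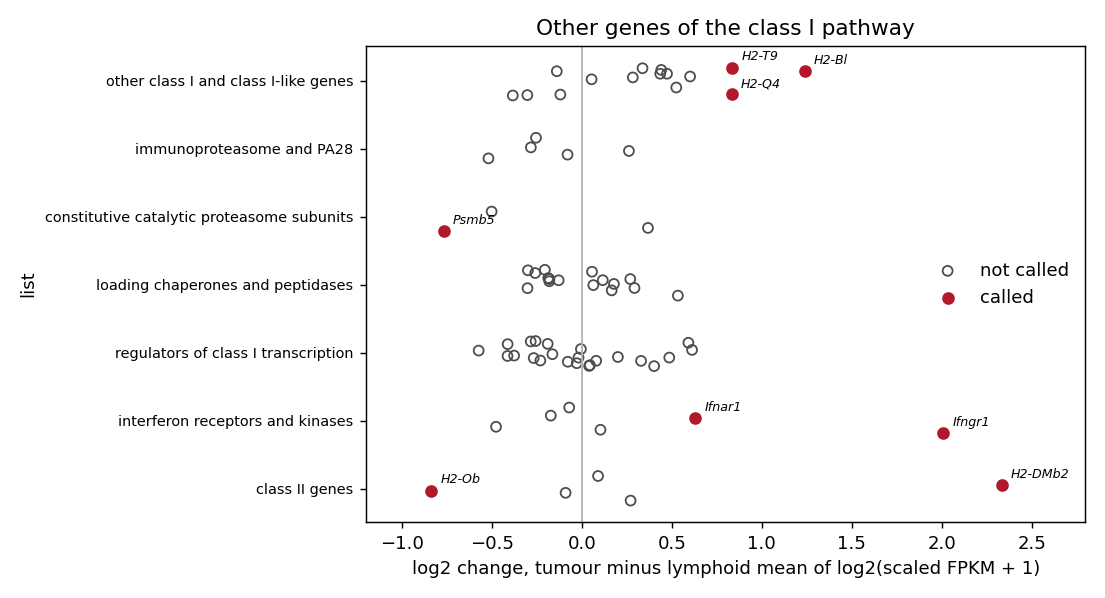
Log2 change (horizontal axis, tumour minus the lymphoid mean) of every tested gene in 7 lists of the class I pathway and its surroundings (vertical axis, points spread vertically within a list for legibility), with genes called by limma filled and named and the others open. There are 0 filled points among the 16 chaperones and peptidases and the 23 regulators, and Ifngr1 lies at 2.01. H2-DMb2 and H2-Ob passed the filter only through the group where they were high.

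The genes whose 3 values were most like those of the H2-T22 and H2-T10 sum, by Euclidean distance between centred log2 values over the 3 libraries, were Mrpl24 (distance 0.0129), Nup35 (0.0200) and Nelfa (0.0271). Mrpl24 encodes a mitochondrial ribosomal protein and was at 5.90 scaled FPKM in tumour, against 13.8 and 13.9. With 3 libraries many profiles are alike, and the likeness is given as a description only.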

How the data were processed

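RNA was measured in 1 tumour and 2 lymphoid libraries of CD4+ T cells. Per the labels' protocols, total RNA of 300000 cells was made into stranded, ribosomal RNA-depleted libraries and read in pairs of 75 bp. The submitters' processing notes name mm10, kallisto and DESeq2, without roles. Settings of alignment and counting: not given in the sources used here. Values that the authors deposited, 1 per gene row, were taken as FPKM. That unit is inferred from the tracking_id header, the column sums and length-dependent steps at low values, and is not stated. A count test was not used because the values are not counts.

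Of the 23832 rows, 252 symbols had more than 1, and the highest on average was used. Median-of-ratios size factors rest on 9660 genes that passed the filter (mean FPKM not under 1) and had no 0. limma 3.58.1 (R 4.3.3) with a mean-variance trend was run on log2(scaled FPKM + 1). The log scale understates the change of low genes. The limma script was run on simulated data in which all 3 libraries had the spread of the lymphoid ones. That run therefore does not cover the lower depth of the tumour library. Depth was estimated from the product of FPKM and length shared, within 3%, by the largest number of single-transcript genes of at least 1000 bases below 2 FPKM, taken as 1 fragment. Counting error was added as a Poisson variance of the tumour fragments, for 9206 tested genes with a GENCODE M21 length (longest coding transcript).

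The genes, lists and motifs were chosen with earlier results of these data known. Beyond the 10 genes, the rule named the 2 strongest called rises and 2 strongest called falls per list (where nothing was called, the gene of highest level), every gene of lists of up to 5, and the 3 nearest profiles. The result of a single gene under this rule is not reported here. Genes named outside it are marked as chosen after their values were seen, apart from the cell type markers and from Tbx21 and Ifng, which carry no such mark. Alternatives were other scalings, pseudocounts and filters, added counting error and leaving out each lymphoid library. Sequence work used Python 3.11.15 and Biopython 1.88.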

Additional observations from a re-analysis of the deposited data

How the results depend on the processing

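Over all tested genes, the 1246 higher and 899 lower calls became 465 and 7620 as deposited, 4370 and 279 with library totals, 6362 and 512 with no filter, 211 and 191 with a filter at a mean of 5 FPKM, and 339 and 31 with counting error added, and with size factors from every symbol, an alternative chosen after seeing the data, 1926 were lower. The cause of these moves was not tested, beyond the shift of the median gene that each scaling makes.

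The median log2 change of the 10 genes, -0.01, was -1.16 as deposited, 0.75 with library totals and -0.30 with size factors from every symbol. The change of the H2-T22 and H2-T10 sum, -1.10, was -2.19, -0.37 and -1.38 under these, and -1.16 and -0.91 with pseudocounts of 0.1 and 5. H2-T22 itself ran from -3.21 to -1.58 over the alternatives run. Leaving out a lymphoid library (value with no test, as no residual degrees of freedom are left) changed the sign of 1 of the 10 genes each time and gave -0.05 to 0.01 for the median and -1.11 to -1.10 for the sum, and counts of calls could not be had.

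As deposited, 465 of all 9800 tested genes were called higher and 7620 lower, so nothing is read from the list counts. Calls were 9 of 15 in other class I genes, 5 of 5 in the immunoproteasome list and 3 of 3 in constitutive subunits. They were 16 of 16 in chaperones and peptidases, 21 of 23 in regulators, 6 of 6 in interferon receptors and 4 of 5 in class II genes. With library totals 4370 of the 9800 were called higher and 279 lower. List calls were then 11 of 15 in other class I genes, 1 of 5 in the immunoproteasome list, 8 of 16 in chaperones and 8 of 23 in regulators. With no filter 6362 of 23337 genes were called higher and 512 lower. List calls were 9 of 28 in other class I genes, 0 of 3 in constitutive subunits and 4 of 11 in class II genes. With the filter at 5 FPKM, 211 of 5112 tested genes were called higher and 191 lower. List calls were 0 in other class I genes, 0 in constitutive subunits, 1 in interferon receptors and 0 in class II genes. With counting error added, 339 of 9206 genes were called higher and 31 lower, and list calls were 0, 0, 1 and 1 in the same 4 lists. With a pseudocount of 5, 1327 of 9800 were called higher and 842 lower, and list calls were 2 of 23 in regulators and 1 of 5 in class II genes. With size factors from every symbol, 837 of 9800 were called higher and 1926 lower. List calls were then 1 of 5 in the immunoproteasome list, 2 of 3 in constitutive subunits and 4 of 23 in regulators.

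Named genes whose direction turned as deposited were H2-Q4 (-0.34), H2-T9 (-0.29), Ifnar1 (-0.44), Psmb6 (-0.74) and Psme2 (-0.90). With library totals they were Psmb7 (0.21), Psmb8 (0.25), Psmb9 (0.49), Psmb10 (0.45), Psme1 (0.69) and Calr (0.64), and with size factors from every symbol Psme2 (-0.027). No paired analysis was possible, as there was 1 tumour library and the labels give no pairing. The depth of the tumour library, about 3250000 estimated fragments, limits genes such as H2-T22 (about 11 fragments) and H2-T10 (about 23).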
